A study of Rattus norvegicus with 8 samples.

Results

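The 8 genes described here encode proteins that join islet cells to one another: Cxadr, Cdh1, Cdh2, Tjp1, F11r, Ocln, Epcam and Gjd2. All 8 were found by symbol among the 10692 rows of the deposited RPKM table (reads per kilobase of gene, scaled to library size), and all 8 passed the filter on low values, set at 1 RPKM or more in 4 or more libraries. Cxadr was picked for its rise in inhibitor libraries, so its difference between the groups is given as a description with no test. The other 7 were taken as junction proteins, with earlier results of these data known.

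The cells came from pancreatic islets of Sprague Dawley rats aged 10 days, dissociated with trypsin and cultured, and RNA was sequenced in 8 libraries. The inhibitor group (4 libraries) received 3 locked nucleic acid (LNA) oligonucleotides at 20 pmol each, 60 pmol in total, against 5-prime tRNA fragments (tiRNA-5) derived from His-GTG, Glu-CTC and Glu-TTC tRNAs. The control group (4 libraries) received 60 pmol of a scrambled control LNA, with the same lipid transfection. The comparison addresses how junction mRNAs respond to inhibition of these fragments, whose own levels RPKM of mRNAs do not show. Separate animals or cultures behind the replicates are not stated, so p-values measure only the spread between these 8 libraries, part of which may be technical.

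Epithelial cells are held together by several kinds of junction. At tight junctions, membrane proteins such as occludin (Ocln), the junctional adhesion molecule F11r and the coxsackievirus and adenovirus receptor Cxadr seal the space between cells, and the scaffold ZO-1 (Tjp1) ties them to actin. At adherens junctions, cadherins bind their like on the next cell. E-cadherin (Cdh1) is the cadherin of epithelia, and N-cadherin (Cdh2) is found on islet endocrine cells and also on neural and mesenchymal cells. Epcam is an adhesion protein of epithelial membranes, and connexin 36 (Gjd2) forms the gap junctions through which rodent beta cells share electrical signals. The adhesion of islet cells to one another is known to bear on insulin secretion, and dissociated cells rebuild these contacts in culture.

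Promoter sequences from RefSeq (build GRCr8, 250 bases before to 50 bases after an annotated start) matched 5 of the 8 genes, Tjp1, Ocln, Gjd2, Epcam and F11r. They were searched for the box CAGGTG, which reads CACCTG on the other strand and is the site bound by the Snail and ZEB repressors of epithelial genes and by E proteins. It occurred at 2 places in the Ocln and 2 places in the Gjd2 window, at 1 in the Epcam and at 1 in the F11r window, and not in the Tjp1 window. The Tjp1 window held 33.7% G and C, against 62.0% (Gjd2) to 75.7% (Epcam) in the others. Whether it covers a promoter of Tjp1 was not tested, so nothing is read from the lack of a box there. Of all 33469 promoter windows of this length, 18.8% held at least 1 such box and 2.52% at least 2. The windows of Ocln (chr2:33441149-33441448, minus strand), Gjd2 (chr3:121229318-121229617, minus strand) and Epcam (chr6:12649629-12649928, minus strand) are printed 5′ to 3′, with the box in capitals, because factors that bind it were measured in the same libraries.
Ocln: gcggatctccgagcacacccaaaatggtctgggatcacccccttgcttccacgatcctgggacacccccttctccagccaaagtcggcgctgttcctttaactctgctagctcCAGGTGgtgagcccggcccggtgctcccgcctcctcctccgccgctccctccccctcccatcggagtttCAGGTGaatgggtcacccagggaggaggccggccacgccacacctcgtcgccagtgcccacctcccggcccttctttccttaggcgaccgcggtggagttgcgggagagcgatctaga
Gjd2: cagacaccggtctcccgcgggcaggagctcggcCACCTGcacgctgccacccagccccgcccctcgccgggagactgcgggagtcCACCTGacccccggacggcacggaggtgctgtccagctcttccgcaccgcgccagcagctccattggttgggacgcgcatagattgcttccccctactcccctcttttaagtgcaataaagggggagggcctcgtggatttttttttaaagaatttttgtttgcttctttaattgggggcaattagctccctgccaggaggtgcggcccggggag
Epcam: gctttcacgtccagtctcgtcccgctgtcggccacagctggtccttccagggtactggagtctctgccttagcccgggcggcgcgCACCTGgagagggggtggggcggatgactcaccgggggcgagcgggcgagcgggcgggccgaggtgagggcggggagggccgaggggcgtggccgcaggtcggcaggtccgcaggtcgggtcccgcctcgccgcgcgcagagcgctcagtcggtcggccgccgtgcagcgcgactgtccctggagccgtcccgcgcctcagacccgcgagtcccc
The boxes began at positions -137 and -68 in Ocln, at -217 and -165 in Gjd2, at -165 in Epcam and at -130 in F11r, counted from the start. A match of letters is a description and not a site of binding in these cells.

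Reads in the listed genes, recovered from the ratios of RPKM between libraries, came to between 16035607 and 19049788 per library. Along the first principal component of all genes tested, which held 41.2% of the variance, inhibitor 4 (-17.4) and control 1 (24.3) stood at opposite ends. Eif2s3y and Kdm5d, both Y-linked, were at 0.257 and 0.120 RPKM in inhibitor 4, against 6.86 to 18.8 and 2.77 to 8.73 RPKM in the other 7 libraries, whereas Ddx3y, also Y-linked, was at 1.42 RPKM in inhibitor 4 and at 0.909 to 1.39 RPKM in the others. The labelled tissue was checked by its markers, and 21 of 22 listed endocrine genes were measured, at a summed 172336 to 266670 RPKM in inhibitor libraries and 214064 to 268134 RPKM in control libraries. Markers of mesenchymal and stellate cells were also present, 18 of 23 listed, at a summed 3675 to 5843 RPKM in inhibitor libraries and 3267 to 7099 RPKM in control libraries. Of the other marker lists, 7 of 16 duct genes, 3 of 23 acinar genes, 5 of 16 endothelial genes, 3 of 12 neural and Schwann cell genes and 2 of 16 immune genes were measured. In bulk RNA, fewer cells of a type and less RNA per cell cannot be told apart.

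The 8 genes spanned about an order of magnitude in level. Epcam had the highest mean over all 8 libraries, 80.0 RPKM, at the 95.1st percentile of all rows, followed by Cdh1 at 73.3 RPKM. Tjp1 (31.5 RPKM) and Gjd2 (29.6 RPKM) came next, then Cxadr (18.1 RPKM), F11r (14.6 RPKM) and Cdh2 (10.6 RPKM). Ocln was lowest at 7.54 RPKM, at the 40.2nd percentile. The order of neighbours was not always firm. Epcam stood above Cdh1 in all 8 libraries although their ranges overlapped, Tjp1 stood above Gjd2 in 6 of 8 and Cxadr above F11r in 7 of 8. The ranges over the 8 libraries were separate between Cdh1 and Tjp1, between Gjd2 and Cxadr, between F11r and Cdh2 and between Cdh2 and Ocln. Each gene rested on at least 575 reads in every library, and Cdh1 on 6651 to 8716, which puts the counting error of a single value between 1.07% and 4.17%.

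**Figure D1:**
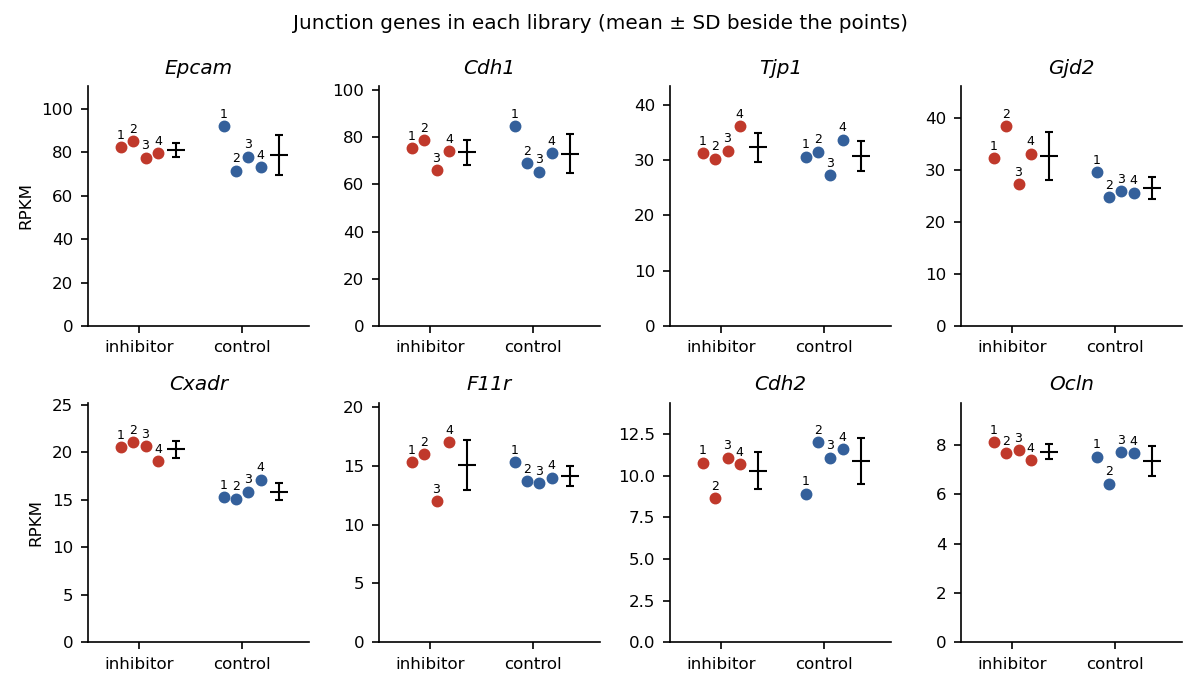
RPKM of the 8 junction genes (vertical axes from 0) in the 4 inhibitor libraries (red) and 4 control libraries (blue), numbered by replicate, with the mean and SD of each group beside the points. The groups separate for Cxadr (19.0 to 21.0 RPKM in inhibitor and 15.1 to 17.1 RPKM in control libraries) and overlap for the other 7 genes.

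Cxadr, the gene chosen for its rise, was higher in every inhibitor library than in any control library. It was at 20.5, 21.0, 20.6 and 19.0 RPKM in inhibitor libraries 1 to 4 and at 15.3, 15.1, 15.8 and 17.1 RPKM in control libraries 1 to 4. The group means were 20.3 ± 0.870 RPKM in inhibitor and 15.8 ± 0.898 RPKM in control libraries (SD, n = 4 each), a ratio of 1.28 and a log2 fold change of 0.34 on the log2(RPKM + 1) scale. Inhibitor 4 was the lowest of its group and control 4 the highest of its own, and the other 6 libraries stood farther apart. Among all 10688 genes tested, 3.7% had groups that did not overlap with inhibitor higher, and since this contrast chose Cxadr nothing is read from that share. The values of Cxadr behind the fold change rested on 764 to 869 reads in inhibitor and 575 to 640 reads in control libraries. Cxadr was the 1 member of the 8 whose groups did not overlap.

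Of the other tight junction proteins, F11r and Ocln in the membrane and Tjp1 on its inner face, none had a difference between the groups that passed the test. F11r was at 15.3, 15.97, 12 and 17.0 RPKM in inhibitor libraries and at 15.3, 13.7, 13.5 and 13.97 RPKM in control libraries, so the group holding its lowest value also held its highest. Its log2 fold change was 0.078 ± 0.0995 (SE; 95% interval -0.14 to 0.30; limma adjusted p = 0.768), and without inhibitor 3 it was 0.18 (limma adjusted p = 0.423). Ocln was at 8.10, 7.67, 7.79 and 7.37 RPKM in inhibitor libraries and at 7.53, 6.44, 7.72 and 7.67 RPKM in control libraries. Control 2 stood below the other 7 libraries, which lay within 7.37 to 8.10 RPKM. The log2 fold change of Ocln was 0.069 ± 0.073 (SE; 95% interval -0.095 to 0.23; limma adjusted p = 0.730), and without control 2 it was 0.015. Tjp1 was at 31.2, 30.2, 31.7 and 36.2 RPKM in inhibitor libraries and at 30.6, 31.5, 27.2 and 33.7 RPKM in control libraries. Replicate 4 was the highest of both groups, and the log2 fold change was 0.071 ± 0.081 (SE; 95% interval -0.11 to 0.25; limma adjusted p = 0.742). With 1 library left out that of Tjp1 lay between 0.015 (without control 3) and 0.11 (without control 4). On the RPKM + 1 scale the intervals leave room for ratios of 1.23, 1.175 and 1.19 upward for F11r, Ocln and Tjp1 and 0.904, 0.936 and 0.927 downward.

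The cadherins and Epcam, the adhesion proteins of the lateral membrane, had no difference between the groups that passed the test. Cdh1 was at 75.5, 78.7, 65.9 and 74.1 RPKM in inhibitor libraries and at 84.8, 69.1, 65.4 and 73.2 RPKM in control libraries. Its means were 73.5 ± 5.42 RPKM in inhibitor and 73.1 ± 8.41 RPKM in control libraries (SD, n = 4 each), with a log2 fold change of 0.012 ± 0.089 (SE; 95% interval -0.19 to 0.21; limma adjusted p = 0.972) that turned to -0.012 with median-of-ratios scaling. Control 1 was the highest of all 8 libraries for Cdh1, as it was for Epcam. Epcam was at 82.4, 85.1, 77.6 and 79.7 RPKM in inhibitor libraries and at 92.2, 71.6, 78.0 and 73.4 RPKM in control libraries. The inhibitor values fell inside the control range, and the log2 fold change was 0.049 ± 0.083 (SE; 95% interval -0.14 to 0.23; limma adjusted p = 0.820). Single control libraries moved that of Epcam, to 0.13 without control 1 (limma adjusted p = 0.438) and to 0.0060 without control 2. Cdh2 was at 10.8, 8.66, 11.1 and 10.7 RPKM in inhibitor libraries and at 8.93, 12, 11.1 and 11.6 RPKM in control libraries. Here inhibitor 2 and control 1 were the low libraries, the same 2 that were highest within their groups for Epcam and Cdh1. The log2 fold change of Cdh2 was -0.071 ± 0.10 (SE; 95% interval -0.31 to 0.16; limma adjusted p = 0.796).

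The balance of the E- and N-cadherin mRNAs showed no difference past the test. The ratio of Cdh1 to Cdh2 RPKM, which does not depend on library scaling, was 6.99, 9.08, 5.95 and 6.93 in inhibitor libraries and 9.50, 5.76, 5.90 and 6.32 in control libraries. The means were 7.24 ± 1.32 in inhibitor and 6.87 ± 1.77 in control libraries (SD, n = 4 each; exact permutation p = 0.6 on the log2 ratio, two-sided, where the smallest p of this design is 0.0286). Inhibitor 2 and control 1 held the high ratios, and the other 6 libraries lay between 5.76 and 6.99. The log2 difference of 0.091 changed sign without inhibitor 2 (-0.024) and was 0.26 without control 1.

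Gjd2, the connexin of beta-cell gap junctions, was the member after Cxadr with the largest difference, and it did not pass the test. It was at 32.2, 38.5, 27.2 and 33.1 RPKM in inhibitor libraries and at 29.6, 24.8, 26.0 and 25.6 RPKM in control libraries. An inhibitor value exceeded a control value in 15 of the 16 possible pairs, the exception being inhibitor 3 against control 1. The means were 32.8 ± 4.61 RPKM in inhibitor and 26.5 ± 2.12 RPKM in control libraries (SD, n = 4 each), a ratio of 1.24 and a log2 fold change of 0.29 ± 0.10 (SE; 95% interval 0.064 to 0.51, unadjusted; limma adjusted p = 0.541). Gjd2 lay under an unadjusted 0.05 in limma with inhibitor higher, as did 5.52% of all genes tested. The log2 fold change was 0.21 without inhibitor 2, its highest library, and 0.37 without inhibitor 3. Without both control 1 and inhibitor 4, the libraries that stood apart, it was 0.33 for Gjd2 (limma adjusted p = 0.228) and 0.35 for Cxadr. In the authors' deposited table Gjd2 had a log2 fold change of 0.28 and an adjusted p of 0.499.

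Over all genes, 0.0% were called at an adjusted p under 0.05, 0 of 10688 by limma and 0 by limma-voom on the recovered reads, and so were 0 of the 7 junction genes other than Cxadr. Under an unadjusted 0.05 lay 960 genes (8.98%) by limma, 590 higher and 370 lower in inhibitor libraries, and 1138 by limma-voom, 861 higher and 277 lower. With median-of-ratios scaling the balance turned, to 449 higher and 540 lower. The limma count of 960 was 422 without inhibitor 1, 494 without control 2 and 1699 without both control 1 and inhibitor 4. Of the 8 members, 7 had a positive log2 fold change, against 54.3% of all genes tested, and their median was 0.070 against 0.015 over all genes. Cxadr, picked for its rise, is one of the 7, and the sign of Cdh1 among them depended on the scaling, so the count is a description of these genes alone.

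**Figure D2:**
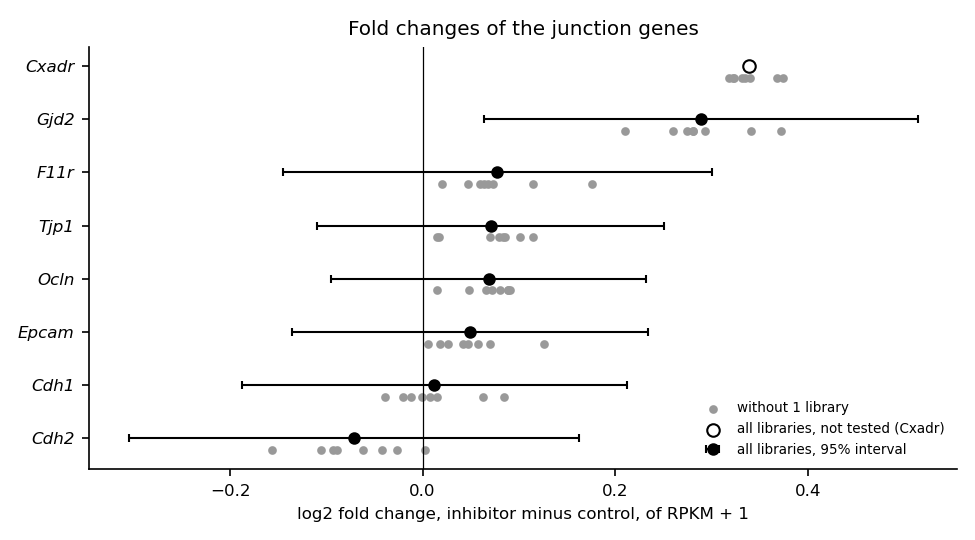
Log2 fold change (inhibitor minus control, of RPKM + 1) of each junction gene over all libraries, with the 95% interval of limma (black), and with each library left out in turn (grey). Cxadr was chosen by this contrast and is drawn without an interval. It stayed between 0.32 and 0.37 with any library left out, Gjd2 between 0.21 and 0.37, and the intervals of the other 6 genes cross 0.

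The spread of Epcam and Cdh2 from library to library ran against or with the markers of mesenchymal and stellate cells (collagens, decorin, smooth muscle actin and others). The share of all genes that ran as closely with these markers was not counted. The relation is thus not shown to be particular to the junction genes. The list mean of log2(RPKM + 1) was 6.70, 6.32, 6.98 and 6.91 in inhibitor libraries and 6.13, 7.18, 6.96 and 7.13 in control libraries, lowest in control 1 and inhibitor 2. Epcam ran opposite to it in exact rank order over the 8 libraries (Pearson r = -0.97, permutation p = 2.48e-05; Spearman rho = -1.0, permutation p = 4.96e-05; adjusted p = 8.68e-04 and 0.00174 over 35 relations of the 7 members other than Cxadr with one another and with the mesenchymal and endocrine means). These are the smallest p-values that 40320 pairings can give, two-sided. Without control 1 and inhibitor 2, the libraries farthest from the median of the list, r was -0.97. Cdh2 ran with the list (Pearson r = 0.96, permutation p = 8.93e-04, adjusted p = 0.0127; Spearman rho = 0.93, permutation p = 0.00223, adjusted p = 0.0195; r = 0.87 without the same 2 libraries). Cdh2 and Epcam were accordingly opposed to each other (Pearson r = -0.90, permutation p = 0.00109, adjusted p = 0.0127; Spearman rho = -0.93, permutation p = 0.00223, adjusted p = 0.0195; r = -0.83 without control 1 and control 2, the libraries farthest from the median of Epcam).

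Within the groups these relations were of the same size. On deviations from the group means, r with the mesenchymal mean was -0.97 for Epcam and 0.96 for Cdh2. Cdh1 also ran opposite to the list mean, but not past the threshold (Pearson r = -0.82, permutation p = 0.0114, adjusted p = 0.0797; Spearman rho = -0.79, permutation p = 0.0279, adjusted p = 0.0978), and r was -0.37 without control 1 and inhibitor 2, so the relation rested on those libraries. Gjd2 did not pass either (Pearson r = -0.67, permutation p = 0.0698, adjusted p = 0.222; Spearman rho = -0.81, permutation p = 0.0218, adjusted p = 0.0953), but its r was -0.80 on deviations from the group means and -0.82 without control 1 and inhibitor 2. F11r (Pearson r = -0.51, permutation p = 0.202; Spearman rho = -0.64, permutation p = 0.0962), Ocln (Pearson r = -0.34, permutation p = 0.422; Spearman rho = -0.095, permutation p = 0.840) and Tjp1 (Pearson r = 0.25, permutation p = 0.535; Spearman rho = 0.45, permutation p = 0.268) were further from the threshold. Tjp1 ran opposite to the mean of the endocrine list (Pearson r = -0.87, permutation p = 0.00707, adjusted p = 0.0618; Spearman rho = -0.90, permutation p = 0.00456, adjusted p = 0.0319; r = -0.88 without inhibitor 2 and inhibitor 4). For Cxadr, given with no test, r with the mesenchymal mean was -0.14 (Spearman rho = -0.31), 0.073 on deviations from the group means and -0.71 without control 1 and inhibitor 2. Fitted beside the mesenchymal mean, the log2 fold change of Cxadr was 0.34 and that of Gjd2 was 0.25 ± 0.073 (SE; limma adjusted p = 0.345).

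**Figure D3:**
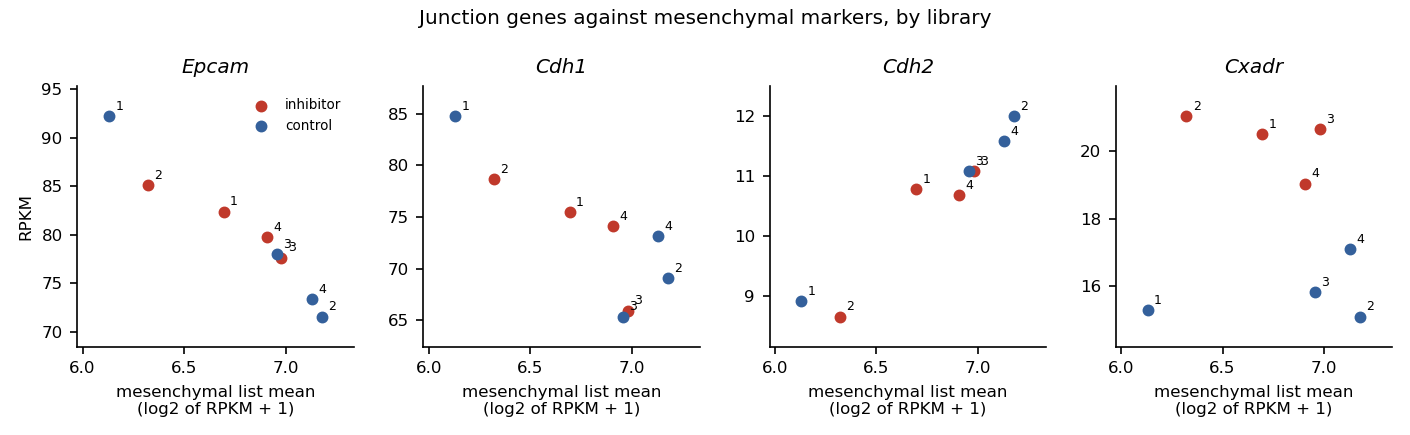
RPKM of Epcam, Cdh1, Cdh2 and Cxadr (vertical axes do not start at 0) against the mean log2(RPKM + 1) of 18 mesenchymal and stellate markers in the 4 inhibitor libraries (red) and 4 control libraries (blue), numbered by replicate. Epcam lies lower and Cdh2 higher toward the right along one line shared by both groups (r = -0.97 and 0.96), whereas the Cxadr points of the groups lie at separate heights.

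Gjd2 and Cxadr, the pair with the largest differences between the groups, had a correlation near 0 within them, given with no test. Over the 8 libraries r was 0.67 (Spearman rho = 0.69; r = 0.51 without inhibitor 2 and inhibitor 4), which holds the difference between the groups, and on deviations from the group means it was -0.047. Gjd2 was opposed to Cdh2 in rank (Spearman rho = -0.93, permutation p = 0.00223, adjusted p = 0.0195) and less firmly on the log scale (Pearson r = -0.75, permutation p = 0.0334, adjusted p = 0.130; r = -0.61 without inhibitor 2 and inhibitor 4). On deviations from the group means r of Gjd2 and Cdh2 was -0.86.

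None of the 5 genes whose levels over the 8 libraries were most like those of Cxadr stood in the lists of junction genes, their partners and regulators. Among 7719 genes with a mean RPKM of at least 5, the highest Pearson correlations with Cxadr on the log2(RPKM + 1) scale were those of Hars2, the mitochondrial histidyl-tRNA synthetase (0.97), Mtrr, methionine synthase reductase (0.96), Slc7a2, a transporter of cationic amino acids (0.96), Gnpda2, glucosamine-6-phosphate deaminase 2 (0.96), and Nrcam, an adhesion protein of the immunoglobulin family (0.96). Since Cxadr was chosen for the difference between the groups, such genes share that difference by choice. On deviations from the group means their correlations were between 0.57 for Gnpda2 and 0.77 for Nrcam. These too follow in part from the choice, since the genes were ranked by correlation over the same 8 libraries. The same holds for listed junction genes that came first in this ranking. Of the listed junction genes, Mpp5, a scaffold of cell polarity, came first (0.94, and 0.78 on deviations from the group means), at rank 15 of 7719, then the desmosomal cadherin Dsc2 (0.79, and 0.37 on deviations), at rank 249, and the adhesion protein Nectin3 (0.78, and 0.12 on deviations), at rank 291. Of the other 7 members, Gjd2 was nearest (0.67), at rank 667, and then Ocln (0.58), at rank 1147.

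A wider view was taken from 5 lists of junction genes, which together had 83 genes tested. Of these, 37 lay above 0 and 46 below 0 in log2 fold change, with a median of -0.048 against 0.015 over all genes. Apart from Cxadr, which is given with no test, none passed at an adjusted p under 0.05. Groups did not overlap for 3 genes that were higher in inhibitor libraries, against 3.7% of all genes tested, and for 1 that was lower, against 1.61%. Without the members these counts were 2 and 1 among 76 genes. Under an unadjusted 0.05 in limma lay 6 of the 83 genes with inhibitor higher, Cxadr and Gjd2 among them, and 7 with inhibitor lower. Without the members these were 4 and 7 of 76. Over all 10688 genes tested they were 590 (5.52%) and 370, together 8.98%. The share with inhibitor lower was thus larger in the lists than over all genes. The share with inhibitor higher was, without the members, near that of all genes. The list counts were not tested, and the lists were chosen with earlier results of these data known.

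Tight junction membrane proteins had 18 of 42 listed genes measured, 9 positive and 9 negative. Cldn4, a claudin of tight epithelia, was at 9.05, 9.71, 9.27 and 9.57 RPKM in inhibitor libraries and at 13.5, 10.8, 10.2 and 10.3 RPKM in control libraries. The groups did not overlap, with inhibitor lower, and control 1 lay well above the rest of its group (log2 fold change -0.22 ± 0.088, SE; limma adjusted p = 0.541). Lsr, a protein of the corners where cells of an epithelium meet in threes, was the most abundant of the list at 41.9 ± 4.36 RPKM in inhibitor and 44.4 ± 2.73 RPKM in control libraries (SD, n = 4 each). Cldn7, a claudin that binds Epcam, was at 21.2 ± 3.13 RPKM in inhibitor and 20.3 ± 1.93 RPKM in control libraries (SD, n = 4 each).

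Plaque and polarity proteins had 26 of 34 listed genes measured, 10 positive and 16 negative, with a median of -0.075. Mpp5, also named Pals1, a scaffold of the Crumbs polarity complex, was at 7.52, 7.34, 7.62 and 7.33 RPKM in inhibitor libraries and at 6.68, 6.48, 6.65 and 7.21 RPKM in control libraries. The groups did not overlap, with a log2 fold change of 0.12 ± 0.062 (SE; limma adjusted p = 0.564). Tjp3, a paralogue of Tjp1, was far lower than Tjp1 itself, at 3.17 ± 0.612 RPKM in inhibitor and 3.01 ± 0.309 RPKM in control libraries (SD, n = 4 each).

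Cadherins, nectins and catenins had 25 of 45 listed genes measured, 9 positive and 16 negative, with a median of -0.086. Nectin3, an adhesion protein of the immunoglobulin family that works beside cadherins, was at 23.8, 22.5, 21.8 and 25.3 RPKM in inhibitor libraries and at 18.9, 19.2, 20.9 and 21.6 RPKM in control libraries. Its groups did not overlap, by a narrow margin between inhibitor 3 and control 4 (log2 fold change 0.20 ± 0.069, SE; limma adjusted p = 0.541). The catenins that link cadherins to actin were the most abundant of the list. Ctnnb1 was at 112 ± 6.88 RPKM in inhibitor and 104 ± 10.4 RPKM in control libraries, and Ctnna1 at 106 ± 4.13 RPKM in inhibitor and 106 ± 8.18 RPKM in control libraries (SD, n = 4 each). The other cadherins had lower means than Cdh1 and Cdh2. Those of Cdh3, Cdh4, Cdh13 and Cdh22 lay between 4.65 RPKM (Cdh4) and 5.53 RPKM (Cdh13) in inhibitor libraries. In control libraries they lay between 4.77 RPKM (Cdh22) and 6.60 RPKM (Cdh13). Single values came near Cdh2, with Cdh13 at 9.89 RPKM in inhibitor 3 (Cdh2 11.1 RPKM) and Cdh22 at 8.39 RPKM in inhibitor 2 (Cdh2 8.66 RPKM).

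Desmosome proteins, which anchor keratin filaments, had 10 of 16 listed genes measured, 6 positive and 4 negative, with no list member whose groups were separate. Dsg2, a desmosomal cadherin, was at 17.3 ± 1.88 RPKM in inhibitor and 15.9 ± 0.939 RPKM in control libraries. Jup, or plakoglobin, was at 14.6 ± 2.07 RPKM in inhibitor and 18.1 ± 2.43 RPKM in control libraries, and Perp at 15.5 ± 2.39 RPKM in inhibitor and 13.0 ± 1.27 RPKM in control libraries (SD, n = 4 each). Of the connexins and pannexins, 5 of 23 were measured and Gjd2 was the most abundant. Gja1, connexin 43, which mesenchymal cells also make, was at 7.63, 5.85, 6.69 and 14.4 RPKM in inhibitor libraries and at 3.73, 10.6, 7.05 and 11.4 RPKM in control libraries. It was lowest in control 1 and highest in inhibitor 4, the libraries at the ends of the first principal component. Panx2, a pannexin, was at 4.06 ± 1.02 RPKM in inhibitor and 5.07 ± 1.12 RPKM in control libraries (SD, n = 4 each).

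Partners of Epcam and Cxadr had 19 of 23 listed genes measured, 8 positive and 11 negative. Spint2, an inhibitor of the membrane proteases that cut Epcam, was the most abundant at 126 ± 7.99 RPKM in inhibitor and 152 ± 31.4 RPKM in control libraries, and its relative Spint1 was at 47.1 ± 2.34 RPKM in inhibitor and 48.9 ± 6.88 RPKM in control libraries (SD, n = 4 each). Regulators of the epithelial state had 18 of 26 listed genes measured, 7 positive and 11 negative. The most abundant were Esrp1, an epithelial splicing factor, at 31.4 ± 2.52 RPKM in inhibitor and 30.4 ± 2.23 RPKM in control libraries, Elf3, an ETS factor, at 30.0 ± 6.655 RPKM in inhibitor and 26.7 ± 1.85 RPKM in control libraries, and Foxa2, a factor of endoderm, at 24.8 ± 2.24 RPKM in inhibitor and 25.7 ± 2.07 RPKM in control libraries (SD, n = 4 each).

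Factors that bind the box shown in the promoters of Ocln, Gjd2 and Epcam were given as values. Snai1, a repressor of Cdh1 and Ocln, was at 18.8, 18.6, 19.5 and 23.0 RPKM in inhibitor libraries and at 12.3, 28.4, 20.2 and 27.4 RPKM in control libraries. Snai2 was at 4.15, 3.38, 3.91 and 4.95 RPKM in inhibitor libraries and at 2.23, 5.44, 4.14 and 5.42 RPKM in control libraries, and Zeb1 at 4.89, 4.22, 5.27 and 5.10 RPKM in inhibitor libraries and at 4.41, 5.84, 5.46 and 5.84 RPKM in control libraries. For Snai1 and Snai2, control 1 was the lowest of all libraries, and for all 3 genes controls 2 and 4 were the highest, the libraries with the highest mesenchymal means. The groups overlapped for each of the 3, and the limma adjusted p was 0.893 for Snai1, 0.986 for Snai2 and 0.669 for Zeb1. Of the E proteins, Tcf3 was at 6.98, 8.07, 7.56 and 7.19 RPKM in inhibitor libraries and at 7.36, 10.3, 8.58 and 9.48 RPKM in control libraries, where control 1 alone lay within the inhibitor range (log2 fold change -0.22 ± 0.097, SE; limma adjusted p = 0.546). Tcf4 averaged 7.59 ± 0.892 RPKM in inhibitor and 8.33 ± 0.937 RPKM in control libraries (SD, n = 4 each; limma adjusted p = 0.670).

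**Figure D4:**
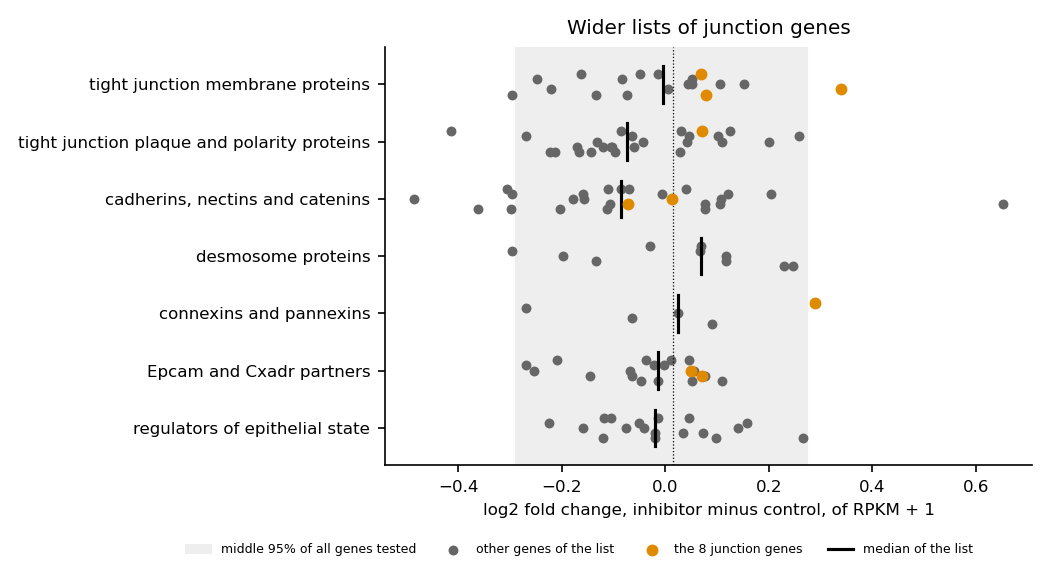
Log2 fold change (inhibitor minus control, of RPKM + 1) of each gene in 7 lists of junction genes, their partners and regulators, with the 8 junction genes in orange, the median of each list as a bar and the middle 95% of all genes tested (-0.29 to 0.27) in grey. The list medians lie between -0.086 and 0.068, and Cxadr and Gjd2 are the 2 orange points to the right of the grey band.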

How the data were processed

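mRNA of cultured islet cells was measured in 8 libraries, 4 inhibitor and 4 control, grouped and numbered by their titles. Per the file headers, each deposited library column holds RPKM. Per the submitters' processing notes, HTSeq, HISAT2 2.1.0, RSEM 1.3.0 and STAR 2.5.3a were among the tools and rn6 was the build. Which tool gave the RPKM, and with what annotation and strand setting, is not given in the sources used here. Both group means were 1 RPKM or more in every one of the 10692 rows, and genes outside them were not analysed here. The authors' deposited table also gave a log2 fold change, a fold (the ratio of mean RPKM), p-values and adjusted p-values, whose test no source used here names.

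RPKM were used as deposited. Ratios of RPKM between libraries gave the smallest whole read numbers for 100.0% of the rows (tolerance 0.0001, wider for high numbers), used for depth and for limma-voom. The 10688 genes at 1 RPKM or more in 4 or more libraries were tested on the log2(RPKM + 1) scale with limma 3.58.1 (R 4.3.3). Group was the one term of the fit, with an intensity trend, and two-sided p-values were adjusted by Benjamini-Hochberg over all genes, with 0.05 as the threshold. The design had foreseen this unit. The Cdh1 to Cdh2 ratio was tested by exact permutation of libraries, and correlations by permutation over all pairings of 8 libraries in Python 3.11.15. The fit was also tested on simulated data, with an outcome not given here.

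The members and gene lists were chosen with earlier results of these data known, and the 35 correlations with the members' values known. Named genes are the 8 members, list genes whose groups did not overlap, the 3 most abundant genes of lists without one, and the 5 genes most like Cxadr. Lsr, Cldn7, Tjp3, Dsc2, the catenins, the other cadherins and the factors of the promoter box were added after their values were seen. The alternatives were another pseudocount (0.1), no filter and a filter at 5 RPKM, median-of-ratios scaling, limma-voom, a replicate block, a covariate (the mesenchymal mean) and left-out libraries. Gene names were matched to RefSeq (GRCr8), which served for names and promoter sequences. Row symbols matched current symbols for 9816 rows and older ones for 330, and 546 matched neither.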

Additional observations from a re-analysis of the deposited data

Results flagged for a closer look

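Chance flags about 1 in 20 groups of 4 libraries in the search for a library far from the others, and 3 of the 18 groups searched were flagged, 2 of which share Cdh2 as a measure. Cdh2 in inhibitor libraries was flagged because inhibitor 2 (8.66 RPKM) lay below the other inhibitor libraries (10.7 to 11.1 RPKM), a gap of 0.839 of the group's range. The ratio of Cdh1 to Cdh2 in control libraries was flagged because control 1 (9.50) lay above the other control libraries (5.76 to 6.32), a gap of 0.851 of the range. Both libraries also had the lowest mesenchymal list means of their groups, 6.32 in inhibitor 2 and 6.13 in control 1, and the part of this in the flagged values was not tested. Ocln in control libraries was flagged because control 2 (6.44 RPKM, 727 reads) lay below the other control libraries (7.53 to 7.72 RPKM), a gap of 0.854 of the range.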

How the results depend on the processing

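With 16 alternatives for each of the 8 genes, 7 of 128 log2 fold changes turned direction, all of Cdh1 or Cdh2, and none of the 7 genes tested passed the threshold (lowest limma adjusted p = 0.228, for Gjd2 without both control 1 and inhibitor 4). Cdh1 was -0.012 with median-of-ratios scaling and -0.022 when fitted beside the mesenchymal mean, and between -0.039 and 0.085 with 1 library left out, below 0 without inhibitor 1 (-0.00094), inhibitor 2 (-0.021), control 2 (-0.012) or control 3 (-0.039). Cdh2 lay between -0.16 and 0.0021 with 1 library left out, above 0 without inhibitor 2. The log2 difference of the Cdh1 to Cdh2 ratio lay between -0.024 and 0.26 with 1 library left out. Cxadr lay between 0.32 and 0.38 and Gjd2 between 0.21 and 0.37 over all alternatives. For Cxadr this range describes the same values that chose it and is no support for its rise. The number of genes called over the whole table was 0 in all of these. Same-numbered libraries were not taken as pairs, since the labels give numbers no shared origin and their deviations correlated at 0.138, -0.273, 0.319 and 0.454 for numbers 1 to 4. Of the 8 libraries, 5 correlated best with their own number. The Y-linked Eif2s3y was at 18.8 and 14.2 RPKM in inhibitor 1 and control 1, and at 6.86 and 6.96 RPKM in number 2. It was at 9.26 and 8.48 RPKM in number 3, but at 0.257 and 8.91 RPKM in number 4. Kdm5d was at 8.73 and 7.04 RPKM in inhibitor 1 and control 1, and at 4.08 and 3.65 RPKM in number 3. In number 2 it was at 2.77 and 3.46 RPKM, where control 2 lay nearer to control 3 than to inhibitor 2. Kdm5d was apart in number 4 (0.120 and 3.83 RPKM), while Ddx3y was at 0.909 to 1.42 RPKM throughout. The data thus leave a pairing of some numbers possible. With the replicate block 0 genes were called, Gjd2 had a limma adjusted p of 0.464, and the exact permutation p of the cadherin ratio was 0.625. The total of sequenced reads is unknown, and genes under a mean of 1 RPKM in either group were not analysed here.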

Other observations

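Cdh6, a cadherin of kidney and neural development, had the largest log2 fold change of the wider junction lists and is named after its values were seen. It was at 2.97, 3.13, 1.97 and 2.65 RPKM in inhibitor libraries and at 0.633, 1.75, 1.16 and 2.01 RPKM in control libraries. Only inhibitor 3 and control 4 crossed, and the log2 fold change of 0.65 ± 0.19 (SE) did not pass (limma adjusted p = 0.541). Lmo7, a protein of adherens junctions and actin, was the most negative, at 9.05, 8.06, 11.1 and 11.2 RPKM in inhibitor libraries and at 19.7, 15.1, 11.8 and 11.03 RPKM in control libraries. Its control libraries were spread widely, control 4 lay below 2 inhibitor libraries, and the log2 fold change was -0.48 ± 0.17 (SE) (limma adjusted p = 0.541).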
